A study of Mus musculus with 2 samples.

Results

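De novo lipogenesis builds fatty acids from surplus carbon and hands them on for esterification, and 10 genes of this pathway were followed here in mouse ear skin: the regulators Srebf1, Mlxipl and Thrsp, the precursor enzymes Acly and Me1, the fatty acid synthesis enzymes Acaca, Acacb and Fasn, and the esterifying enzymes Gpam and Agpat2. They were chosen by name, as known members of the pathway, with earlier results of these data known. All 10 were found among the 34745 genes of the count table and among the 15240 that reached 1 CPM (CPM are counts scaled to a common library total) in at least one library. One library is labelled KAT8-cKO, a conditional knockout of KAT8, a histone acetyltransferase also called MOF, and the other is labelled WT. There is 1 library for each genotype. Per the labels, the ear skin of both had been treated with imiquimod, a TLR7 agonist that gives mouse skin a psoriasis-like inflammation, as 30 mg of a 5% cream on each ear on each of 3 days, with collection on day 4, so neither library is from untreated skin. The sources used here do not give the promoter or cell type of the knockout, nor the strain, age and number of animals.

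In this pathway ATP-citrate lyase turns cytosolic citrate into acetyl-CoA, acetyl-CoA carboxylase makes malonyl-CoA, and fatty acid synthase joins these units, with NADPH from malic enzyme and the pentose phosphate route, into palmitate. SREBP-1 (Srebf1), which responds to insulin and sterols, and ChREBP (Mlxipl), which responds to glucose, are the main transcription factors that switch these enzymes on in liver and fat. In skin, the sebaceous gland, the epidermis and the fat beneath the dermis all make fatty acids, for sebum, barrier lipids and stored triglyceride.

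The libraries held 13727524 counts for KAT8-cKO and 12179608 for WT. Kat8 itself was not lower under the knockout label, with 351 counts in the library labelled KAT8-cKO and 219 in the library labelled WT. Its ratio of CPM was 1.27 (95% interval 1.07 to 1.51). Of its 2891 exon bases, 122 are shared with Prss8 on the other strand. A single value for the whole gene also covers cells and exons outside a conditional deletion. It therefore checks the label weakly, and the libraries are named by their labels below. Xist had 6 counts in the library labelled KAT8-cKO and 11891 in the library labelled WT, and the Y-linked Eif2s3y had 838 and 0 in the same order. The libraries thus differ in the sex that these transcripts mark. Animal sex and genotype label cannot be told apart for any difference described below. Over all measured genes, the share past 2-fold was 4.56% upward and 8.63% downward in the library labelled KAT8-cKO, 13.2% either way, with a median log2 ratio of 0.01. Of the genes past 2-fold, 34.6% were higher, or 47.7% with plain CPM, a scaling that raises the median of all genes to 0.16. With 1 library a group no test was possible and no p-value is given. Intervals are exact 95% intervals from the counts and cover counting error only, not the spread between animals.

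Sequence before a RefSeq start of 4 of these genes is shown because they differ in the ratios described below: Acacb, the single gene called higher, Srebf1, close to the 2-fold line, Fasn, within it, and Mlxipl, called lower. Each line gives bases on GRCm38.p6, 5′ to 3′, trimmed where an annotated exon begins. Capitals mark the motifs searched on both strands, the E-box CACGTG, the CCAAT box CCAAT, the GC box GGGCGG, the TATA box TATAAA and TCACCCCAC, a part of the sterol element bound by SREBP. For Srebf1 the window of the most downstream of 3 starts is shown (chr11:60210472-60210721, minus strand), for Mlxipl that of the more upstream of 2 starts (chr5:135089640-135089889, plus strand), for Fasn its single window (chr11:120824548-120824797, minus strand) and for Acacb its single window (chr5:114165268-114165508, plus strand). The Mlxipl and Fasn windows end at the 5′ end of the gene, whereas the Srebf1 and Acacb windows lie inside their genes, before starts 12.1 kb and 19.0 kb downstream of it, so the Acacb line does not show the sequence before the first annotated exon.
Acacb: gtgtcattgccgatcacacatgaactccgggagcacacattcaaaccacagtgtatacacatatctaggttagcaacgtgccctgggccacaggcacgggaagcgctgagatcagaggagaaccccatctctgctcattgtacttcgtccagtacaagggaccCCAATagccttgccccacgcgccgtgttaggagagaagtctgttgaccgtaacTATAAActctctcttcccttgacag
Srebf1: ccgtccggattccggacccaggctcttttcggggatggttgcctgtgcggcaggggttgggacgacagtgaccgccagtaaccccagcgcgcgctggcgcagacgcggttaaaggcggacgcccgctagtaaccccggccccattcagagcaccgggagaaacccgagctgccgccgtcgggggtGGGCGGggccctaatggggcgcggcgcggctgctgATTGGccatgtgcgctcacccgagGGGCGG
Fasn: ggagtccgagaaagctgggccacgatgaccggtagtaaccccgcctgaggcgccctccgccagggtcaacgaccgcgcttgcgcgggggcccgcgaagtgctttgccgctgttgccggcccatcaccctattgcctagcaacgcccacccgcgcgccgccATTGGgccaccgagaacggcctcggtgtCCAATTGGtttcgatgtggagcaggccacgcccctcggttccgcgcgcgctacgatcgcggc
Mlxipl: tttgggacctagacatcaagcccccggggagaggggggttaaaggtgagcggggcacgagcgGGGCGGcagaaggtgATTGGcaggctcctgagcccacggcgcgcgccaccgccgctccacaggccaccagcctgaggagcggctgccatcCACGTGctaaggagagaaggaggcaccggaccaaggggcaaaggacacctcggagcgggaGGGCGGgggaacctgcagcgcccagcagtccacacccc

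All 10 genes matched the RefSeq promoter table, with 15 windows of 250 bases before a start, 7 of which lie wholly inside the gene. The CCAAT box, the site of NF-Y, lay in 8 of these windows and in 33.8% of the 32851 windows of all genes, and the GC box, a site of Sp1, in 7 windows and in 32.7% of all. Fasn held 3 CCAAT boxes, 2 of which overlap. The E-box, to which SREBP and ChREBP can bind, lay in 1 window, the upstream one of Mlxipl, and in 6.02% of all windows. The TATA box lay in 1 window, the internal one of Acacb, and in 12.4% of all. TCACCCCAC lay in none of the 15 and in 0.496% of all. In Thrsp 2 CCAAT boxes lay in the part of the window that an annotated exon covers, which is not printed.

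The genes of the pathway differed in direction between the libraries. Of the 10 genes, 1 was called higher in the library labelled KAT8-cKO by the 2-fold rule (Acacb), against the background of 4.56%, and 3 were called lower (Thrsp, Mlxipl and Agpat2), against 8.63%. The other 6 lay within 2-fold by the log2 ratio of CPM + 1, with Srebf1 and Gpam near the upper line. The median log2 ratio of all 10 was 0.03, beside 0.01 for all measured genes, and their summed level was 1733 CPM in the library labelled KAT8-cKO and 1707 CPM in the library labelled WT. The ratios of CPM of Acly, Me1, Acaca, Acacb and Fasn ran from 0.816 to 2.64, while Thrsp stood among the lowest ratios of the whole table.

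**Figure D1:**
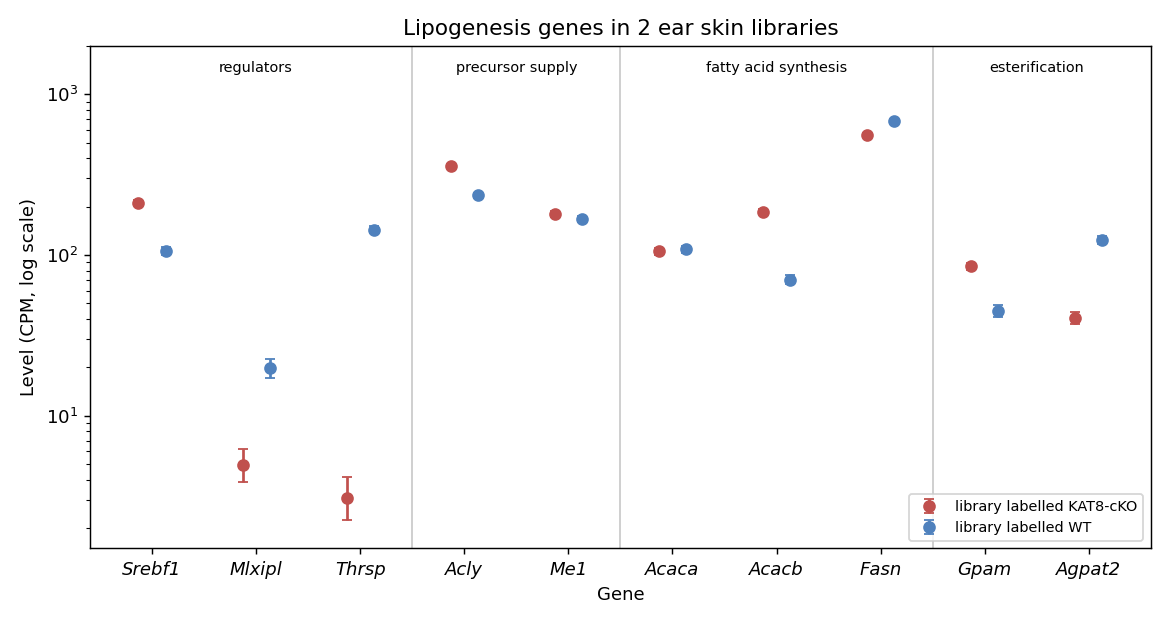
Level of each gene in CPM (log axis) in the library labelled KAT8-cKO (red, left) and the library labelled WT (blue, right), grouped by role, with exact 95% Poisson intervals of the counts. Thrsp and Mlxipl lie below 5 CPM in the KAT8-cKO library, and Acacb, Srebf1, Gpam and Acly lie higher there than in the WT library.

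The 3 regulators went in different directions. Srebf1 (ENSMUSG00000020538, GRCm38 chromosome 11, 60199089 to 60222581, minus strand), which encodes SREBP-1a and SREBP-1c from separate first exons that a gene count pools, had 3073 counts or 212 CPM in the library labelled KAT8-cKO and 1217 counts or 106 CPM in the library labelled WT. Its ratio of CPM was 2.0 (interval 1.88 to 2.14), and its log2 ratio with the pseudocount of 1 CPM, 0.996, fell just short of the threshold of 1. An exon of Rai1 on the other strand shares 109 bases with Srebf1, 1.93% of its exon length, and Rai1 had 441 and 262 counts in the same order. Mlxipl and Me1 share exon bases only with genes that had at most 6 counts in either library, and Agpat2 with Egfl7, whose values stand beside it.

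Mlxipl (ENSMUSG00000005373, chromosome 5, 135089890 to 135138382, plus strand), the gene of ChREBP, had 72 counts or 4.96 CPM in the library labelled KAT8-cKO and 227 counts or 19.7 CPM in the library labelled WT. It was 3.97-fold lower (interval 3.03 to 5.25), with a log2 ratio of -1.80, and 347 of the 15240 measured genes had a lower ratio. Per Mlxipl count there were 42.7 Srebf1 counts in the library labelled KAT8-cKO and 5.36 in the library labelled WT, a 7.96-fold difference in the balance of both factors (interval 6.02 to 10.6) that does not depend on the scaling of the libraries.

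Thrsp (ENSMUSG00000035686, chromosome 7, 97412938 to 97417730, minus strand) encodes Spot 14, a small protein that promotes lipogenesis in liver, fat and mammary gland. It had 45 counts or 3.10 CPM in the library labelled KAT8-cKO and 1656 counts or 144 CPM in the library labelled WT. This is a ratio 46.4-fold lower (interval 34.5 to 63.8) and a log2 ratio of -5.14, and 3 measured genes had a lower one. Its paralog Mid1ip1, which activates acetyl-CoA carboxylase and was picked for comparison after its values were seen, had 1109 counts in the library labelled KAT8-cKO and 538 in the library labelled WT. Thrsp therefore made up 3.79% of the summed level of both genes per kb of exon in the library labelled KAT8-cKO and 75.0% in the library labelled WT.

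**Figure D2:**
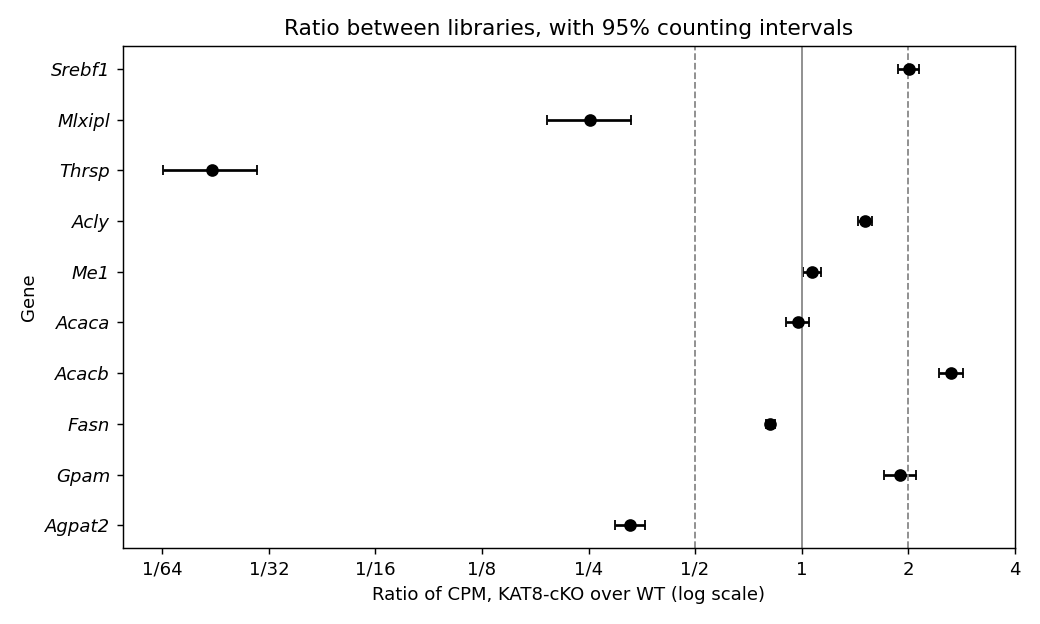
Ratio of CPM, KAT8-cKO over WT, for each gene (log axis) with exact 95% counting intervals; dashed lines mark 2-fold. The intervals of Srebf1 and Gpam include 2-fold, those of Thrsp, Mlxipl and Agpat2 lie below 1/2, and that of Acacb lies above 2.

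The enzymes that supply carbon (Acly) and NADPH (Me1) were 1.51 and 1.07 times as high in the library labelled KAT8-cKO as in WT. Acly (ENSMUSG00000020917, chromosome 11, 100476353 to 100528000, minus strand), ATP-citrate lyase, had 5171 counts or 356 CPM in the library labelled KAT8-cKO and 2717 counts or 236 CPM in the library labelled WT, a ratio of 1.51 (interval 1.44 to 1.58). Me1 (ENSMUSG00000032418, chromosome 9, 86581371 to 86695953, minus strand), the cytosolic malic enzyme, had 2612 counts or 180 CPM in the library labelled KAT8-cKO and 1940 counts or 168 CPM in the library labelled WT. Its ratio was 1.07 (interval 1.01 to 1.13). Among the malic enzymes Me1 held 91.1% of the summed level per kb in the library labelled KAT8-cKO and 90.2% in the library labelled WT, so the mitochondrial forms Me2 and Me3 were minor in both.

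The pair of acetyl-CoA carboxylases was split. Acaca (ENSMUSG00000020532, chromosome 11, 84129672 to 84401651, plus strand) encodes the cytosolic ACC1, whose malonyl-CoA feeds fatty acid synthesis, and had 1533 counts or 106 CPM in the library labelled KAT8-cKO and 1249 counts or 108 CPM in the library labelled WT. Its ratio of 0.974 had an interval from 0.904 to 1.05, so no difference was detectable at this depth. Acacb (ENSMUSG00000042010, chromosome 5, 114146535 to 114250761, plus strand) encodes ACC2 at the mitochondrial surface, whose malonyl-CoA restrains fatty acid oxidation by blocking carnitine palmitoyltransferase. It had 2697 counts or 186 CPM in the library labelled KAT8-cKO and 811 counts or 70.4 CPM in the library labelled WT, 2.64-fold higher (interval 2.44 to 2.86), and 336 measured genes had a higher log2 ratio than its 1.39.

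Within a library, Acacb counts per Acaca count were 1.76 in the library labelled KAT8-cKO and 0.649 in the library labelled WT, a 2.71-fold difference (interval 2.43 to 3.02). Per kb of exon, Acacb held 75.7% of the carboxylase level in the library labelled KAT8-cKO and 53.5% in the library labelled WT. The ratio per kb was 3.12 and 1.15 in the same order with all annotated exons, and 1.90 and 0.703 with the longest transcript of each gene, so which carboxylase was the more abundant in the library labelled WT depends on the length used.

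Fasn (ENSMUSG00000025153, chromosome 11, 120805846 to 120824547, minus strand), the multifunctional synthase that makes palmitate, had 8124 counts or 560 CPM in the library labelled KAT8-cKO and 7904 counts or 686 CPM in the library labelled WT. It was 1.23-fold lower (interval 1.19 to 1.26), a log2 ratio of -0.29. Acly counts per Fasn count were 0.637 in the library labelled KAT8-cKO and 0.344 in the library labelled WT, a 1.85-fold difference (interval 1.75 to 1.96), and the difference was 3.24-fold for Acacb per Fasn (2.97 to 3.52). The ratio of the synthase was therefore below those of Acly, which acts before it, and of Srebf1.

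Esterification enzymes also split. Gpam (ENSMUSG00000024978, chromosome 19, 55067268 to 55127238, minus strand), the mitochondrial glycerol-3-phosphate acyltransferase GPAT1 that adds the first acyl chain to the glycerol backbone, had 1232 counts or 84.9 CPM in the library labelled KAT8-cKO and 515 counts or 44.7 CPM in the library labelled WT. Its ratio was 1.90 (interval 1.71 to 2.11), with a log2 ratio of 0.91. Agpat2 (ENSMUSG00000026922, chromosome 2, 26593057 to 26604417, minus strand), which adds the second acyl chain and whose loss in humans causes a congenital lack of fat, had 589 counts or 40.6 CPM in the library labelled KAT8-cKO and 1429 counts or 124 CPM in the library labelled WT. It was 3.06-fold lower (interval 2.77 to 3.37), a log2 ratio of -1.59. Egfl7 on the other strand shares 64 bases with Agpat2, 3.00% of its exon length, and had 496 and 471 counts in the same order.

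Gpam and Agpat2 catalyse consecutive steps, and their balance differed by 5.80-fold (interval 5.03 to 6.70), with 2.09 Gpam counts per Agpat2 count in the library labelled KAT8-cKO and 0.360 in the library labelled WT. Paralogs of both, shown because their values had been seen, differed as well. Gpat3, an acyltransferase of the endoplasmic reticulum that is abundant in fat, had 140 counts in the library labelled KAT8-cKO and 809 in the library labelled WT. Gpam accordingly held 46.6% of the GPAT level per kb in the library labelled KAT8-cKO and 17.7% in the library labelled WT, and Gpat3 10.1% and 52.8%. Among the 5 AGPAT genes Agpat2 held 27.0% in the library labelled KAT8-cKO and 56.9% in the library labelled WT, and Agpat3, with 2796 and 1468 counts, 35.0% and 16%.

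**Figure D3:**
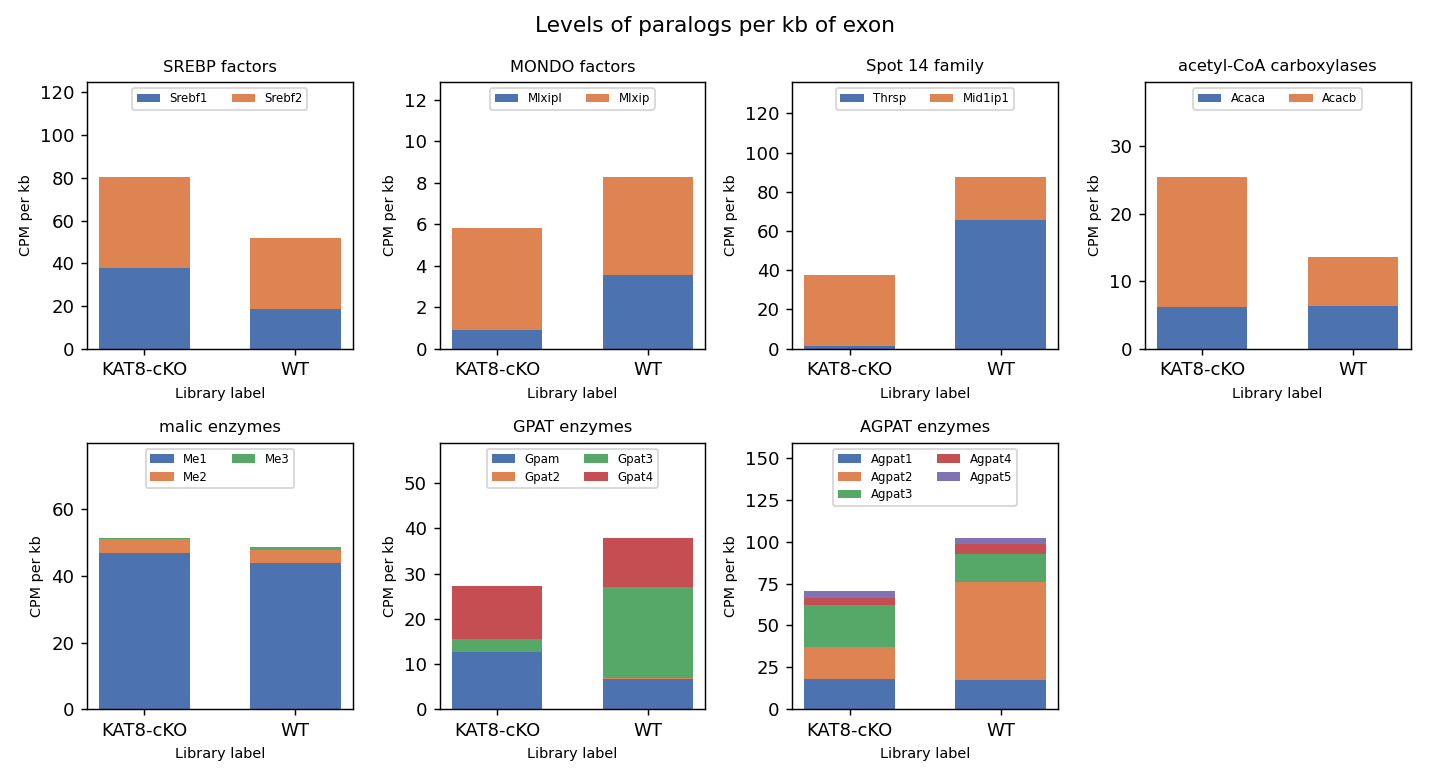
Level per kb of exon (CPM per kb) of each gene of 7 paralog families, stacked, with the library labelled KAT8-cKO left of the library labelled WT. The MONDO (Mlxipl and Mlxip), Spot 14, acetyl-CoA carboxylase, GPAT and AGPAT families differ in make-up between the libraries, whereas Me1 dominates the malic enzymes in both. Mlxipl holds 15.4% of its family in the KAT8-cKO library and 42.9% in the WT library. Srebf1 holds 46.7% and 36.1% of the SREBP factors in the same order.

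Ranked within a library by level per kb of exon, Acly (67.5 CPM per kb), Fasn (51.1) and Me1 (46.8) led in the library labelled KAT8-cKO. Thrsp (65.7 CPM per kb), Fasn (62.7) and Agpat2 (58.2) led in the library labelled WT. Thrsp was first of the 10 in the library labelled WT and ninth in the library labelled KAT8-cKO, at 1.42 CPM per kb, just above Mlxipl at 0.896, and Mlxipl was last in both. With the longest transcript as the length, Thrsp (103 CPM per kb) still led in the library labelled WT but Agpat2 (83.3) passed Fasn (68.3).

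**Figure D4:**
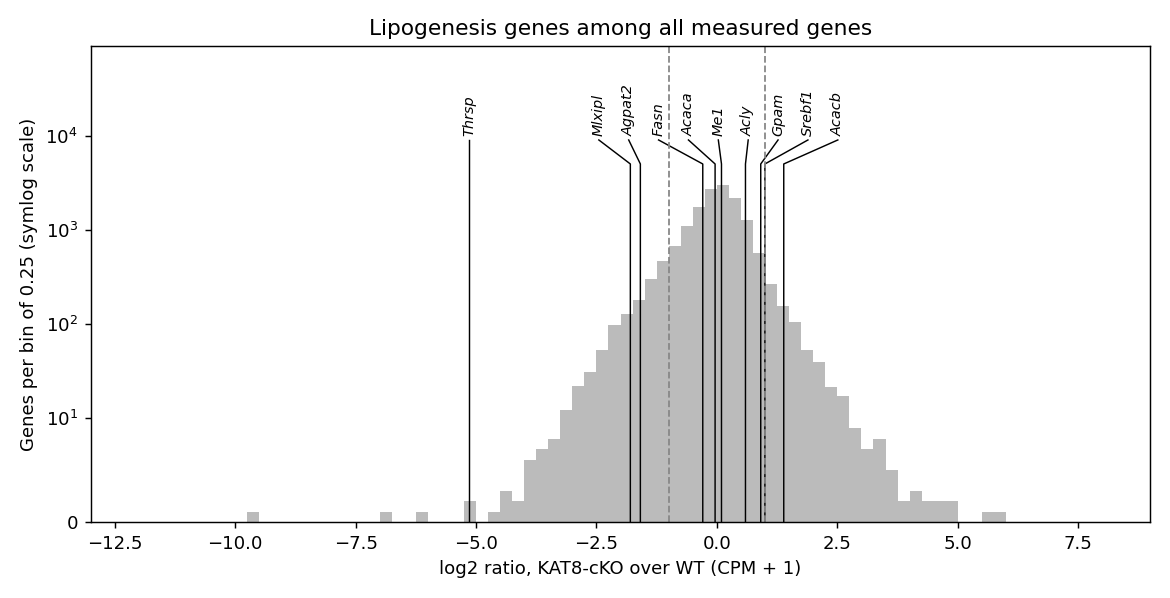
Number of measured genes per log2 ratio bin (symlog axis), with the 10 lipogenesis genes marked by lines and the 2-fold thresholds dashed. Thrsp lies in the far lower tail at -5.14. Of the synthesis and supply enzymes, Fasn, Acaca and Me1 lie near the centre, Acly lies above it at 0.59, and Acacb lies past the upper threshold at 1.39.

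The libraries also differed in markers of cell types that the ear holds, and in bulk skin fewer cells of a type and less RNA per cell cannot be told apart. Of 14 adipocyte markers, 11 were called lower and 1, Cidea, higher in the library labelled KAT8-cKO. Their summed level was 707 CPM in the library labelled KAT8-cKO and 3780 CPM in the library labelled WT, and none was at 0 in either library. The lowest, Cfd, the serum protease adipsin, was 24.0-fold lower, Retn (resistin) 15.4-fold, the lipid droplet gene Cidec 13.7-fold and Adipoq (adiponectin) 12.7-fold, so Thrsp at 46.4-fold had a lower ratio than each of the 14. Sebaceous gland markers mostly went the other way, with 12 of 15 at least 2-fold higher, none at least 2-fold lower and none at 0. Of the 3 within 2-fold, Mgst1 was 1.88-fold higher, Prdm1 1.59-fold lower and Plin2 1.25-fold lower. The summed level of the sebaceous list was 4727 CPM in the library labelled KAT8-cKO and 981 CPM in the library labelled WT. Cidea stands in both lists, and Elovl3 and Scd3 also stand in the elongation and desaturation list. The largest ratios among the sebaceous markers were 42.4-fold for Acoxl, 26.0-fold for Far2, a reductase that makes fatty alcohols for wax, 24.9-fold for the fatty acid hydroxylase gene Fa2h and 18.6-fold for Elovl3. Skeletal muscle markers were lower in 12 of 12 cases, with 3420 and 17505 CPM in the same order, and Mybpc2 was 20.8-fold, Actn3 12.6-fold, the myosin gene Myh4 12.5-fold and the creatine kinase gene Ckm 6.64-fold lower. The 9 keratinocyte markers, detected in both libraries, summed to 28782 CPM in the library labelled KAT8-cKO and 27558 CPM in the library labelled WT, but 4 of them were called. Krt15 (6.77-fold) and Col17a1 (2.01-fold), genes of basal cells, were higher, and Krt10 (3.52-fold) and Krt1 (2.63-fold), keratin genes of the layers above, were lower. The other 5 lay within 2-fold in both directions. Krt5 and Trp63 had ratios of 1.47 and 1.41, and Krt14, Dsg3 and Dsc3 had 0.959, 0.947 and 0.825.

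Set against the adipocyte markers, the 3 genes called lower did not behave alike. Thrsp had 4.39 counts per 1000 counts of the adipocyte list in the library labelled KAT8-cKO and 38.0 in the library labelled WT. Mlxipl had 7.02 and 5.21 in the same order, and Agpat2 57.4 and 32.8, both higher in the library labelled KAT8-cKO. All the other genes followed except Thrsp were higher by this measure too. The list sum itself was 707 CPM in the library labelled KAT8-cKO and 3780 CPM in the library labelled WT. This ratio lies below that of each of the 10 genes except Thrsp. More counts per list count therefore followed for all but Thrsp, whatever their own direction. Some single markers, such as Lipe (4.18-fold lower) and Lpl (3.21-fold), had folds close to those of Mlxipl and Agpat2, and others were far lower, with Cfd at 24.0-fold. Against the sebaceous list all 10 genes had fewer counts per 1000 list counts in the library labelled KAT8-cKO. Acacb was closest (39.3 in the library labelled KAT8-cKO and 71.8 in the library labelled WT) and Srebf1 next (44.8 and 108). The summed level of that list was 4727 CPM in the library labelled KAT8-cKO and 981 CPM in the library labelled WT. This ratio exceeds that of each of the 10 genes, so fewer counts per list count followed for all 10 whatever their own direction. The part of either tissue in the differences was not tested.

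Genes around the pathway, taken from lists chosen with earlier results of these data known, mostly lay within 2-fold, as did most measured genes. Over all measured genes 13.2% lay past 2-fold either way, 4.56% higher and 8.63% lower. None of 19 measured genes that control SREBP and ChREBP reached a log2 ratio of 1 in size with the pseudocount, and their median was 0.06. Nr1h3, the gene of the sterol receptor LXRα and named after its values were seen, fell just short at -0.995, with 152 counts in the library labelled KAT8-cKO and 252 in the library labelled WT, and its CPM without the pseudocount was 2.09-fold lower (interval 1.70 to 2.57). Srebf2, the sterol-regulated relative of Srebf1, had 308 CPM in the library labelled KAT8-cKO and 238 CPM in the library labelled WT, and the nuclear receptor gene Rxra 286 and 201 CPM. Of 20 genes for acetyl-CoA, NADPH and malonyl-CoA supply, 1 was called higher and 2 lower, near these background shares, with a median of 0.03. The higher one was Hlcs, the ligase that attaches biotin to carboxylases such as ACC1 and ACC2, with 409 counts in the library labelled KAT8-cKO and 127 in the library labelled WT (2.56-fold). The lower ones were Me3 (66 and 140 counts) and Prkaa2 (244 and 437), a catalytic subunit of AMPK, the kinase that inhibits the carboxylases. The other AMPK subunit genes of this list lay within 2-fold. Prkaa1, the other catalytic subunit gene, had 759 and 790 counts, a ratio of 0.763, and Prkab1 and Prkab2 had ratios of 1.06 and 1.22. None of 7 genes of mitochondrial fatty acid synthesis was called (median 0.17), and those with the highest mean CPM, Mecr and Ndufab1, had log2 ratios of 0.17 and -0.36.

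Of 17 measured glycerolipid assembly genes, 3 were called lower and none higher, against the background of 8.63% lower, with a median of 0.05. Without genes that share exons, a setting that shortens the list and changes no ratio, 1 was lower. The 3 were Gpat3 (7.28-fold lower), Gpd1 (3.62-fold), which makes glycerol-3-phosphate, and Dgat2 (2.32-fold), which completes triglyceride. In the elongation and desaturation list 7 of 14 were higher and none lower, against the background of 4.56% higher, with a median of 1.07. Elovl6, which lengthens the palmitate that Fasn makes, had 1089 CPM in the library labelled KAT8-cKO and 62.6 CPM in the library labelled WT, and Elovl3 had 759 and 40.8 CPM. Elovl4 had 2170 and 517 CPM, and the desaturase gene Scd1 5012 and 1456 CPM. There were 1.95 Elovl6 counts per Fasn count in the library labelled KAT8-cKO and 0.0912 in the library labelled WT, a 21.3-fold difference (interval 19.7 to 23.2).

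**Figure D5:**
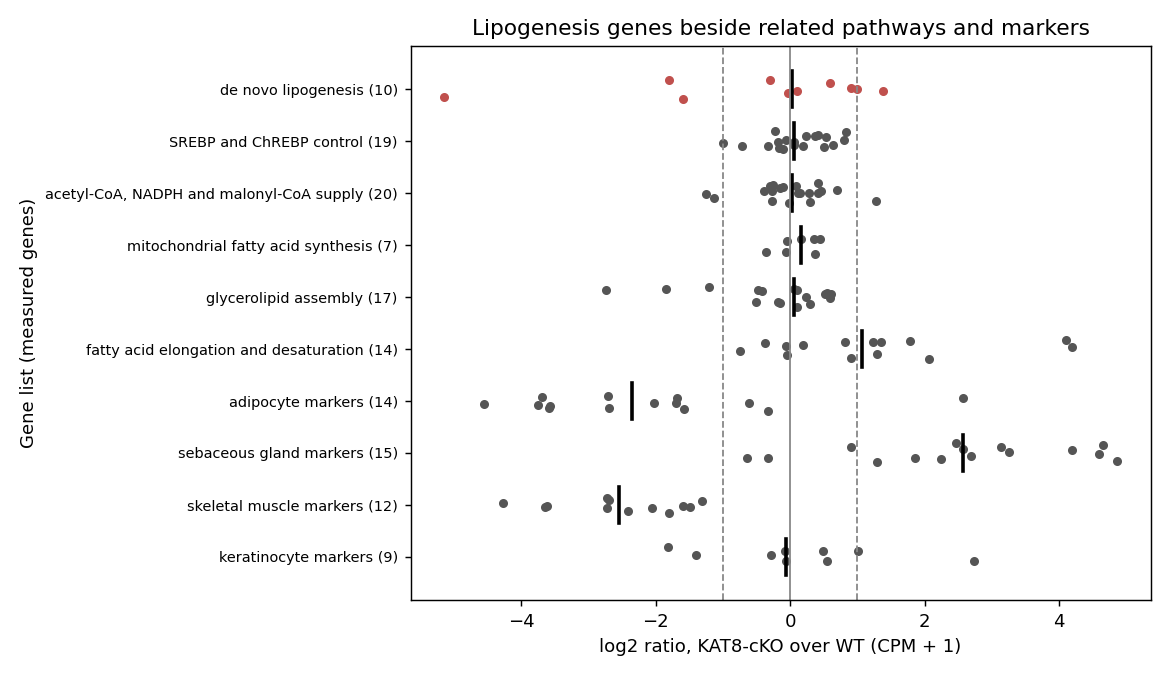
Log2 ratio, KAT8-cKO over WT, of each measured gene in 10 lists (number of measured genes in brackets), with the list median as a black bar and dashed lines at 2-fold. The lipogenesis genes spread from -5.14 to 1.39 around a median of 0.03, while the adipocyte and muscle lists lie mostly below and the sebaceous list mostly above 0.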

How the data were processed

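The authors deposited raw counts per Ensembl gene, whole numbers that are not normalized. Per the submitters' processing notes HISAT2, StringTie 1.3.0, edgeR and mm10 were used; the sources used here do not give which step each did, the counting tool or its strand setting, so reads in exons shared with another gene cannot be assigned. Symbols, coordinates and exon lengths are from GENCODE M21 (GRCm38, the assembly of mm10); 34344 of 34745 genes had a symbol. Counts were divided by library totals times TMM factors (1.06 for KAT8-cKO, 0.946 for WT; edgeR 4.0.16, R 4.3.3), giving CPM. Log2 ratios are of CPM + 1, which understates differences of low genes; genes reaching 1 CPM in one or both libraries were measured, and a log2 ratio of at least 1 in size was called. Folds are ratios of these CPM without the pseudocount, with Clopper-Pearson intervals (scipy 1.17.1); double ratios have exact conditional intervals. One count was 0.0689 CPM in KAT8-cKO and 0.0868 CPM in WT. The calculations were tested on simulated data. DESeq2 1.42.0 gave alternative size factors only. Of each further list, up to 4 genes with the largest called ratios were named, or the 2 most abundant where fewer than 2 were called. The genes followed and all lists were chosen with earlier results of these data known, and the paralog families and count pairs after these values were seen.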

Additional observations from a re-analysis of the deposited data

How the results depend on the processing

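The 10 genes kept the sign of their log2 ratios under each of the 9 alternatives that could be applied, except Acaca. The value of Acaca, near 0, ran from -0.04 to 0.12, and Thrsp ran from -5.49 to -5.00. With plain CPM the log2 ratios of all but Mlxipl and Gpam left their counting intervals, with Fasn at -0.13 and Me1 at 0.26. The counting intervals therefore do not cover the choice of scaling. The number of lipogenesis genes called higher depended on the scaling because Srebf1 and Gpam lie near 2-fold. It was 1 as reported, 2 with DESeq2 size factors, 2 with a pseudocount of 0.1 CPM and 3 with plain CPM. Leaving out genes that share exons removes Srebf1, Mlxipl, Me1 and Agpat2 and left 1 called lower and a median of 0.28. Plain CPM, which raises all ratios alike, moved the median of the lipogenesis genes to 0.19, of the supply list to 0.19, of glycerolipid assembly to 0.21, of elongation and desaturation to 1.23, of adipocyte markers to -2.20, of muscle markers to -2.39 and of keratinocyte markers to 0.10. The elongation and desaturation median was 0.90 with no filter, 1.24 with a filter of 5 CPM and 0.90 without genes that share exons. Without those genes the medians were 0.40 for SREBP and ChREBP control, -2.70 for adipocyte, -2.69 for muscle and 0.21 for keratinocyte markers. The number called lower in the SREBP and ChREBP control list was 1 rather than 0 under 4 alternatives (the pseudocount of 0.1 CPM, upper quartile factors and both reduced gene sets for TMM). In the supply list it was 1 rather than 2 with plain CPM and without genes that share exons, a setting that also gave 1 rather than 3 for glycerolipid assembly, 7 rather than 12 for muscle and 1 rather than 2 for keratinocyte markers. Leaving out genes that share exons shortens the lists and changes no ratio, so all muscle markers that were left were still called lower. Acacb per Acaca with the longest transcript was 1.90 in KAT8-cKO and 0.703 in WT. No paired analysis was possible because each group has 1 library, which also means that no library could be left out. Depth limits Mlxipl and Thrsp most, with 72 and 45 counts in the library labelled KAT8-cKO.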
